A study of Mus musculus with 6 samples.

Results

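The genes described here encode the nucleotide hydrolases Entpd1 to Entpd7 of the Entpd family, the AMP hydrolase CD73 (Nt5e) and the A2 adenosine receptors (Adora2a and Adora2b), 10 of the 27195 genes named on the array. They were found as the non-control probes whose gene name on the array is one of these symbols, which gave 19 probes of the 56605 different non-control probes. The set was picked because Entpd4 and Nt5e read lower in the knockout, so the difference between knockout and wild type chose the set, and its values for these genes are given as a description with no test. The series compared cultured bone marrow stem cells (BMSCs) from wild-type mice (WT, 3 samples) with BMSCs from knockout mice (KO, 3 samples) that lack NONMMUT002667, an identifier of the NONCODE catalogue of non-coding RNA, each on 1 Agilent array with Cy3 label. The cells had been sorted from femurs digested with collagenase, by presence of Sca-1 and CD29 and absence of CD45 and CD11b, and grown to the first passage. Whether the deletion shows in the RNA was not checked, since no probe was identified for its transcript. The labels give the mice as male, and give no age, strain, details of the deleted allele or number of animals per sample, so any p-value measures only the spread between these 6 samples.

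Cells release ATP and other nucleotides, which act on P2 receptors at the cell surface. Entpd enzymes at the surface, with Entpd1 (CD39) the best known, remove phosphates from ATP and ADP, CD73 turns the resulting AMP into adenosine, and adenosine acts on G protein-coupled receptors, of which the A2 types raise cyclic AMP. Other Entpd enzymes lie in the Golgi, the endoplasmic reticulum or lysosomes and hydrolyse nucleotides there. CD73 is one of the surface proteins by which cultured mesenchymal stromal cells are recognised, and CD39 is typical of leukocytes and endothelium.

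Before the members, the state of the arrays bears on their values. The scanner software rated 54.3% to 56.7% of spots other than controls as well above background on WT arrays and 49.0% to 53.0% on KO arrays. All 6 arrays lay on 1 slide, with the WT arrays in 1 row of it and the KO arrays in the other, so slide row and genotype cannot be told apart. WT replicate 3 and KO replicate 1 went against the label male, with log2 Xist signals of -0.53 and -0.36 against -6.84 to -5.86 on the other 4. The sort markers Ly6a (Sca-1) and Itgb1 (CD29) had log2 differences of -0.09 (SE 0.25) and -0.08 (SE 0.11), while the transcripts of the excluded markers Ptprc (CD45) and Itgam (CD11b) were well above background on all 6 arrays. Of 10 macrophage and monocyte markers, 10 were well above background on every array. Their mean log2 level was 4.98 to 5.09 in WT and 5.14 to 5.25 in KO. Of 8 osteoblast markers, 8 lay lower on every KO array than on any WT array, with a mean level of 3.19 to 3.61 in WT and 1.29 to 2.20 in KO. Since osteoblast and macrophage transcripts were both present, the cells that carry the transcripts described below are not known, and fewer cells of a type and less RNA per cell cannot be told apart.

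Values are log2 processed signals minus the array's 75th percentile. They may be compared between arrays for 1 probe, not between probes. Of the 19 probes, 13, for 9 genes, passed the filter on dim probes (well above background throughout at least 1 group) and entered the fit over all probes. Entpd7 had no such probe. Another 4 probes were well above background on no array.

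Of the 10 genes, Entpd3, Nt5e and Entpd4 read clearly lower in KO cells, by 3.55-fold, 2.32-fold and 1.68-fold at their brightest probes, and Entpd2 by 1.15-fold. Entpd1, Entpd5, Entpd6, Adora2a and Adora2b had overlapping groups. Over the 13 probes, all 3 KO values lay below all 3 WT values for 6 and above them for 0, and 3 probes were at least 2-fold lower. A dim Entpd4 probe among the latter was well above background on only 2 of 3 KO arrays. Over all 28606 probes tested, all KO values lay below all WT values for 9.57% and above them for 12.6%, and 1.18% were at least 2-fold lower. At an adjusted limma p under 0.05, 0.0594% of all probes passed, 0.0489% as lower in KO. The set was chosen on this contrast, so no test of its probes is given and nothing is read from their counts. The median log2 difference was -0.20 over the 9 genes, each at its brightest tested probe, and 0.02 over all 15371 genes tested.

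The probes behind the lower readings are identified here by the first 30 of their 60 bases, written 5′ to 3′ as the array design gives them, in lower case with no base marked.
Entpd3: tccctgcagagttgctacacatcttgactt
Nt5e: accgtttaaaattccaatccttttatgaag
Entpd4 probe a: aagcccacaccgtggaagagcctgaattta
Entpd4 probe b: ctgtctcccttttatacttctctgttgtca
Entpd4 probe c: ggtgttttcttgacagatgtaagactttag
Their places in the design's mouse build mm9, all on the plus strand, are chr9:120476757-120476816 for Entpd3, chr9:88266616-88266675 for Nt5e, and chr14:69984685-69984744, chr14:69967249-69967308 and chr14:69984192-69984251 for Entpd4 probes a, b and c. The design lists a RefSeq transcript of the gene for each of the 5. Exon and UTR limits in that build were not used here.

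**Figure D1:**
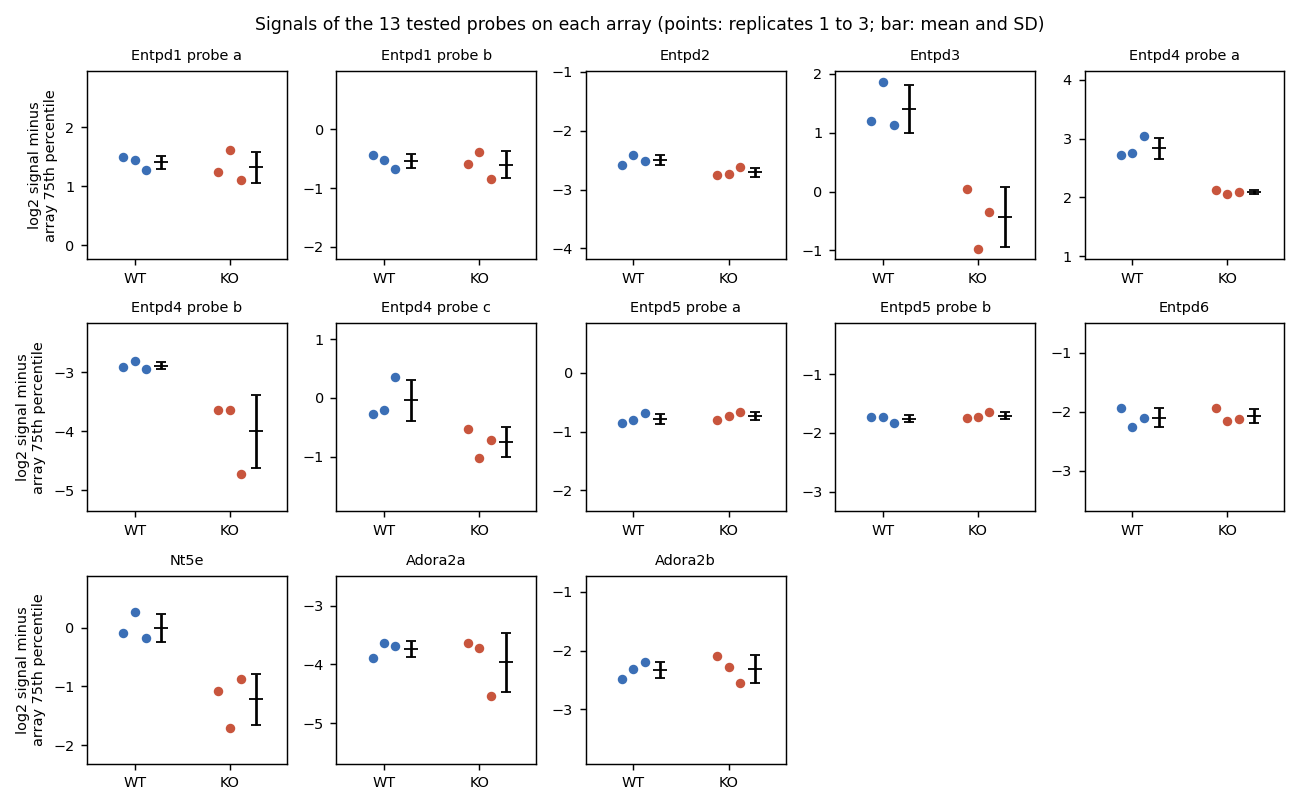
Log2 signal minus the array's 75th percentile (y axis, each panel spanning the same range of 3.2 log2 units) for the 13 tested probes, with a point for each of the 3 WT and 3 KO arrays and a bar for mean and SD. Entpd1 probe a is the brighter one, and Entpd4 probes a to c are those in the text. The KO points of Entpd3, Nt5e and the 3 Entpd4 probes lie below all WT points, while those of Entpd1, Entpd5, Entpd6 and the A2 receptors overlap them.

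Among the surface hydrolases of the set, Entpd3 differed most. NTPDase3, which it encodes, hydrolyses ATP and ADP at the plasma membrane. Its probe read 1.20, 1.87 and 1.14 on WT replicates 1 to 3 and 0.04, -0.97 and -0.35 on KO replicates 1 to 3. The groups did not overlap, with a gap of 1.1 between the lowest WT and the highest KO array, and each group spread widely (SD 0.41 in WT and 0.51 in KO, n = 3 each). The log2 difference was -1.83 (SE 0.30). Without the 2 arrays with Xist signal it was -2.19.

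Entpd1 (CD39), which hydrolyses ATP and ADP in step to AMP, read 1.49, 1.45 and 1.28 in WT and 1.24, 1.61 and 1.11 in KO at its brighter probe (chr19:40814006-40814065). The highest value belonged to a KO array and the groups overlapped. The log2 difference was -0.09 (SE 0.14), and a second probe at chr19:40813463-40813522 gave -0.06 (SE 0.13). The remaining Entpd1 probe, for which the design lists no RefSeq transcript, was well above background on no array.

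Entpd2, whose product prefers ATP over ADP, read -2.58, -2.41 and -2.52 in WT and -2.76, -2.74 and -2.62 in KO (chr2:25256752-25256811). The groups stood apart by a gap of only 0.04. The log2 difference was -0.20 (SE 0.08).

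Nt5e, which makes adenosine from AMP, read -0.10, 0.27 and -0.18 in WT and -1.08, -1.70 and -0.87 in KO. The groups did not overlap, with a gap of 0.69 and SDs of 0.24 and 0.43 (n = 3 each). The log2 difference was -1.21 (SE 0.23), and -1.37 without the 2 arrays with Xist signal. WT replicate 2 was the highest and KO replicate 2 the lowest array for both Nt5e and Entpd3. These were also the highest (3.61) and the lowest (1.29) arrays for the mean level of the 8 osteoblast markers, whose part in the differences was not tested. The other arrays did not all keep that order. The osteoblast level was higher on WT replicate 3 (3.33) than on WT replicate 1 (3.19), where Nt5e and Entpd3 were both higher. It was 2.20 on KO replicate 1 and 2.12 on KO replicate 3, an order that Entpd3 shared and Nt5e did not. All these orders rest on single arrays, and nothing is read from them. The 9 stromal progenitor markers other than Nt5e had a mean level of 1.65 to 1.93 in WT and 1.54 to 1.84 in KO, with a median log2 difference of -0.08. The second Nt5e probe (chr9:88225916-88225975), for which the design lists no RefSeq transcript, read between -6.82 and -5.87 and was well above background on no array, so it gives no second measure of the gene.

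Among the hydrolases of internal compartments, Entpd4, which encodes an enzyme of the Golgi and lysosomes, read lower at all 3 of its probes. Probe a read 2.72, 2.75 and 3.04 in WT and 2.12, 2.06 and 2.09 in KO. The KO arrays lay within a narrow range (SD 0.03, against 0.18 in WT), 0.60 below the lowest WT array. The log2 difference was -0.75 (SE 0.10), and -0.66 without the 2 arrays with Xist signal.

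Probe c of Entpd4, near probe a, read -0.28, -0.20 and 0.36 in WT and -0.52, -1.02 and -0.71 in KO, a log2 difference of -0.72 (SE 0.20). On both probes WT replicate 3 was the highest array and KO replicate 2 the lowest. Probe b, further toward the start of the gene, read -2.90, -2.81 and -2.94 in WT and -3.64, -3.64 and -4.72 in KO. It was well above background on 2 of 3 KO arrays, and its log2 difference was -1.12 (SE 0.29). With normexp background correction and quantile normalization, probe b gave -0.65. All 3 probes read lower, but probe b passed the filter on dim probes through the WT group alone. Its value on KO replicate 3 lay below the dimmest spot rated well above background on that array (-3.6). Probe b is therefore not taken as support for probes a and c, and its size is the least settled. RefSeq lists a gene Entpd4b on the same chromosome, 0 probes carry that name, and whether the Entpd4 probes also bind its transcripts was not tested.

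Entpd5, an endoplasmic reticulum enzyme that splits UDP during glycoprotein folding, hardly differed. Its brighter probe (chr12:85717631-85717687, minus strand) read -0.85, -0.81 and -0.69 in WT and -0.80, -0.74 and -0.67 in KO, with a log2 difference of 0.05 (SE 0.08). A second probe gave 0.05 (SE 0.08), and the remaining probe was well above background on no array. Without the 2 arrays with Xist signal the brighter probe had 0.13, with both remaining KO values above both WT values.

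Entpd6, an enzyme of the Golgi that is also secreted, read -1.94, -2.26 and -2.11 in WT and -1.93, -2.15 and -2.12 in KO (chr2:150596979-150597038; log2 difference 0.04, SE 0.11). The groups lay on top of each other. A second Entpd6 probe was well above background on 1 WT array and 0 KO arrays. Entpd7, an intracellular relative of Entpd4, was near the limit of detection. Its better probe (chr19:43767206-43767265) was well above background on 2 of 3 arrays in each group, with -4.40, -3.91 and -4.25 in WT and -3.92, -3.94 and -3.73 in KO. No difference is given for it, since some arrays of both groups lie at background.

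The A2 receptors did not separate the groups. Adora2a, the receptor with the higher affinity for adenosine, read -3.90, -3.64 and -3.69 in WT and -3.64, -3.72 and -4.54 in KO (chr10:74797461-74797520). Its lowest value, on KO replicate 3, was not well above background, and the log2 difference was -0.22 (SE 0.24). Adora2b, the receptor with the lower affinity, read -2.48, -2.31 and -2.20 in WT and -2.09, -2.28 and -2.56 in KO (chr11:62079096-62079155), a log2 difference of 0.02 (SE 0.14). The highest and the lowest of its 6 values were both on KO arrays.

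**Figure D2:**
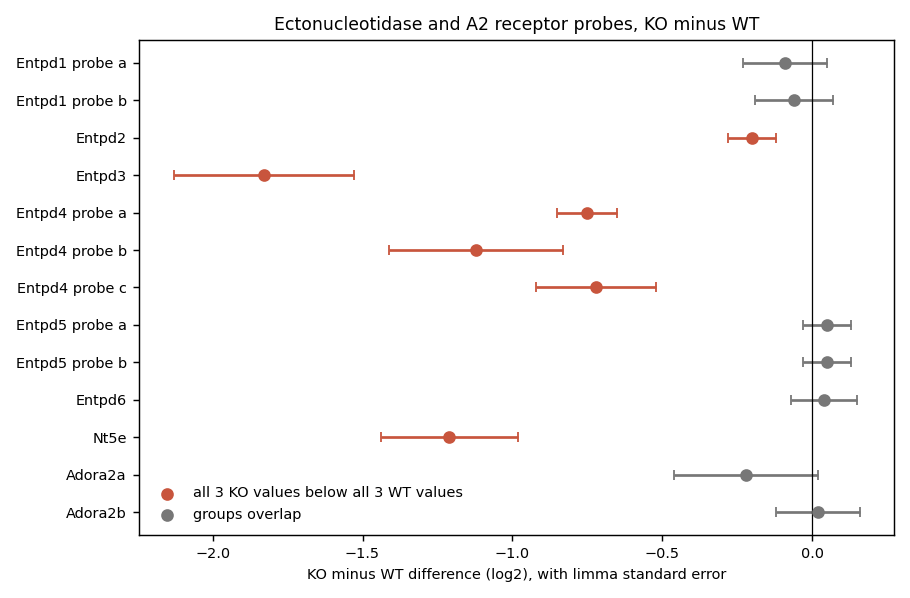
KO minus WT difference in log2 signal (x axis) with its limma standard error for the 13 tested probes (rows), red where all 3 KO values lay below all 3 WT values and grey where the groups overlapped. Entpd3 stands farthest from 0 at -1.83, followed by Nt5e at -1.21 and the Entpd4 probes at -1.12, -0.75 and -0.72, while Entpd5, Entpd6 and Adora2b lie within 0.05 of 0.

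The lower readings of the 3 genes held in direction under each of the 17 other settings tried, but many of these could not have turned it. Other filters on dim probes, the replicate block, the Xist term and the variance trend leave a probe's difference as it was. Leaving out arrays cannot turn the sign where the groups do not overlap. Another normalization, centring on the median and the deposited series table could have turned it. Over all settings the difference ranged from -2.19 to -1.56 for Entpd3, -1.39 to -0.97 for Nt5e and -0.86 to -0.64 for Entpd4. The -0.86 came from the setting that averaged the 3 Entpd4 probes, and the other Entpd4 values are those of probe a. Entpd1 lay between -0.23 and 0.02.

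**Figure D3:**
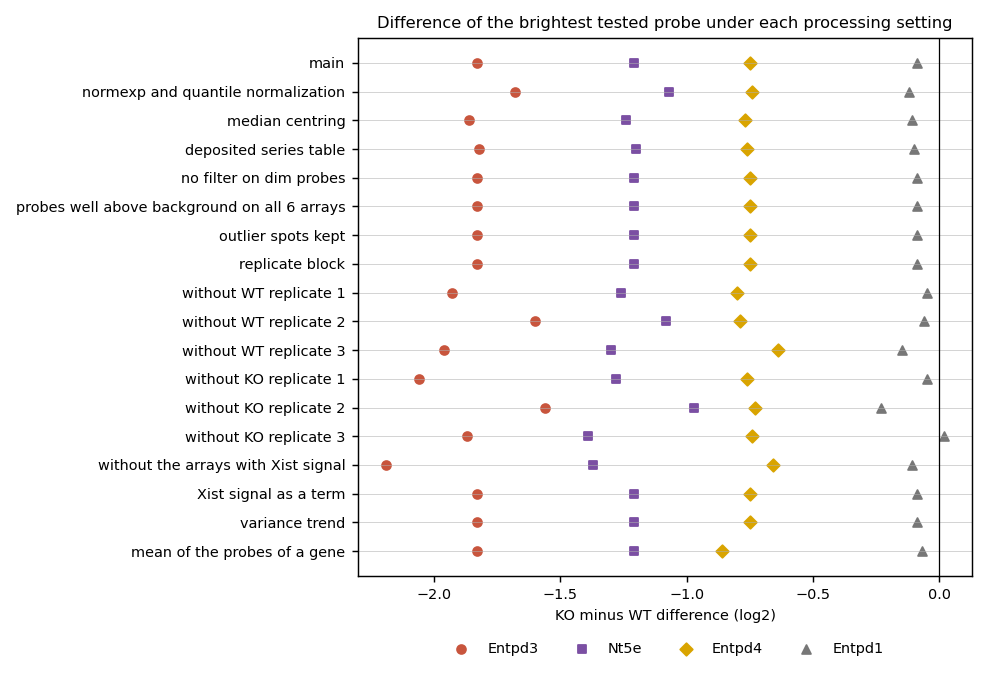
KO minus WT difference in log2 signal (x axis) of the brightest tested probe of Entpd3, Nt5e, Entpd4 and Entpd1 under the main setting and 17 alternatives (rows). In the row that averages the probes of a gene, the value is for the mean of its tested probes. The first 3 genes stay below -0.6 in every row, and Entpd1 stays between -0.23 and 0.02.

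The RefSeq promoter table (GRCm38.p6) held entries for 8 of the 10 genes, all but Entpd4 and Adora2a. The 250 bases before the start of Nt5e and Entpd3 are shown because these genes read lowest in KO relative to WT. Copies of 3 motifs, searched on both strands with overlapping copies counted, are in capitals. These are the GC box GGGCGG bound by Sp1-type factors, the E-box CACGTG, and the AP-1 site TGAGTCA.
Nt5e, chr9:88327359-88327608, plus strand: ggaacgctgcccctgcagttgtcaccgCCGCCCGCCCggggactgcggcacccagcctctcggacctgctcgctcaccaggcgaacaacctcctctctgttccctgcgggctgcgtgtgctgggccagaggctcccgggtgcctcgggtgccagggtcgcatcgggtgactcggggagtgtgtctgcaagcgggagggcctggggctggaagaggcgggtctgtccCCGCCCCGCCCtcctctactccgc
Entpd3, chr9:120539568-120539817, plus strand: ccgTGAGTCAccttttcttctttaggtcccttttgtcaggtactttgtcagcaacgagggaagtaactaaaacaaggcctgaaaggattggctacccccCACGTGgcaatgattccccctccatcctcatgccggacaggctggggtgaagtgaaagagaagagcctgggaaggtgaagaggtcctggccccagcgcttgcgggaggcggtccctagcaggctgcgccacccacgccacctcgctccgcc
The Nt5e window held 4 copies of GGGCGG, 2 overlapping pairs, and 0 of the other motifs. The Entpd3 window held 1 CACGTG and 1 TGAGTCA and 0 copies of GGGCGG. Thus no motif of the 3 was shared by both. GGGCGG occurred in 32.7% of all 32851 promoter windows of this length, CACGTG in 6.02% and TGAGTCA in 4.46%. GGGCGG also lay in the windows of Adora2b, Entpd2 and Entpd7, and TGAGTCA in that of Entpd2. The motifs were chosen after these values were seen, and a match is a description of letters only.

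Among 15358 other genes, each at its brightest tested probe, those whose pattern over the 6 arrays was most like that of Nt5e were Bmp3, a bone morphogenetic protein family member (Pearson r = 0.9996), Kank1, a regulator of the actin cytoskeleton (0.9977), Ano1, a calcium-activated chloride channel (0.996), Lpar3, a lysophosphatidic acid receptor (0.994), and Gsg1 (0.9939). Their log2 differences were -1.86, -1.16, -1.44, -2.24 and -0.70. Lpar3 was well above background on only 2 of 3 KO arrays, so its difference and its r rest in part on a value that was not. Like Nt5e, all 5 had their highest WT value on replicate 2 and their lowest KO value on replicate 2. Those most like Entpd4 probe a were Lrmda (0.9966, chromosome 14), Smarcd3 (0.9961, chromosome 5), Tmem254c (0.9958, chromosome 14), Alg2 (0.9923, chromosome 4) and Timp2 (0.9921, chromosome 11). Their log2 differences were -3.17, -0.34, -0.77, -0.26 and -0.31. On chromosome 14 (mm9) the probes start at 23875251 for Lrmda, 26744273 for Tmem254c and 69984685 for Entpd4 probe a, so Entpd4 is not a near neighbour of either. Tmem254c has near-identical copies, so its probe may read more than 1 gene. The 6 arrays fall into 2 groups, which raises r for any gene that separates them: 277 genes had an r over 0.95 with Nt5e and 82 with Entpd4. The values describe likeness over 6 arrays and carry no test.

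The other genes of nucleotide and adenosine handling come from a list of 66 that leaves out the 10 members, and 49 of these were tested. The difference was negative for 24 of the 49, against 44.2% of all genes tested. By role it was negative for 4 of 5 genes of ATP release and pyrophosphate export, 8 of 12 other hydrolases, 3 of 6 kinases, 1 of 2 genes of the NAD route, 5 of 11 genes of adenosine removal and transport, 0 of 1 other adenosine receptor and 3 of 12 P2 receptors. Of the 49, 0 passed limma at an adjusted p under 0.05, where 0.0781% of all genes passed. At an unadjusted limma p under 0.05, 7 of the 49 (14.3%) were lower and 5 (10.2%) higher, against 8.03% and 6.94% of all genes (15.0% in either direction). The 5 on the higher side became 2 without WT replicate 2, and 3 without WT replicate 3 or without any 1 of the KO arrays. In 9 of the 49 (18.4%) all KO values lay below all WT values and in 8 (16.3%) above them, against 10.4% and 12.0% of all genes. The list's median log2 difference was 0.03.

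Among the genes of ATP release, Panx3, a pannexin channel of osteoblasts and chondrocytes that lets ATP out, read 2.06, 2.14 and 1.79 in WT and 1.07, 0.52 and 0.96 in KO, without overlap (log2 difference -1.15, SE 0.17; limma adjusted p = 0.0691). It passed in 2 of the 17 other settings, namely normexp with quantile normalization and the variance trend. Gja1, the gap junction protein a connexin, had -0.60 (SE 0.15; limma adjusted p = 0.138) and Slc17a9, the vesicular nucleotide transporter, -0.30 (SE 0.07; limma adjusted p = 0.139).

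The 12 other hydrolases and phosphatases had a median difference of -0.18. Alpl, the bone alkaline phosphatase that splits pyrophosphate and also AMP, read 4.61, 5.17 and 4.50 in WT and 3.83, 4.17 and 4.39 in KO, a gap of 0.11 (log2 difference -0.63, SE 0.22; limma adjusted p = 0.247). Alpl is also among the 8 osteoblast markers above, so this is the same measurement and not a separate one. Enpp5 had -0.42 (SE 0.08; limma adjusted p = 0.097) and the choline phosphodiesterase gene Enpp6 -1.01 (SE 0.27; limma adjusted p = 0.162). The 2 Entpd8 probes on the array did not enter the fit.

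On the higher side, P2ry1, an ADP receptor, read -1.33, -1.43 and -1.31 in WT and -1.02, -0.90 and -1.02 in KO (log2 difference 0.38, SE 0.08; limma adjusted p = 0.106). P2rx7, the ATP-gated channel of macrophages and other cells, had 0.25 (SE 0.11; limma adjusted p = 0.333) and P2rx3 0.29 (SE 0.11; limma adjusted p = 0.277), though a second P2rx3 probe had -0.34. For the P2rx3 probe that had 0.29 the design lists no RefSeq transcript. It was dim, with means of -3.6 in WT and -3.31 in KO. The dimmest spots rated well above background lay at -4.62 to -4.41 on WT arrays and at -4.15 to -3.6 on KO arrays. Adora3, an adenosine receptor that lowers cyclic AMP, had 0.34 (SE 0.13; limma adjusted p = 0.296). Slc28a2, a nucleoside carrier, had 0.40 (SE 0.10; limma adjusted p = 0.15) and Ada, adenosine deaminase, which breaks adenosine down, 0.29 (SE 0.10; limma adjusted p = 0.252). The difference of Ada was 0.17 without the 2 arrays with Xist signal, that of Adora3 0.20 without KO replicate 2, and that of P2rx3 0.13 with normexp and quantile normalization. Of the macrophage and monocyte markers, 9 of 10 also had a positive difference (median 0.13), and their part in these values was not tested. None of the 6 tested nucleotide and adenosine kinases had an unadjusted limma p under 0.05.

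**Figure D4:**
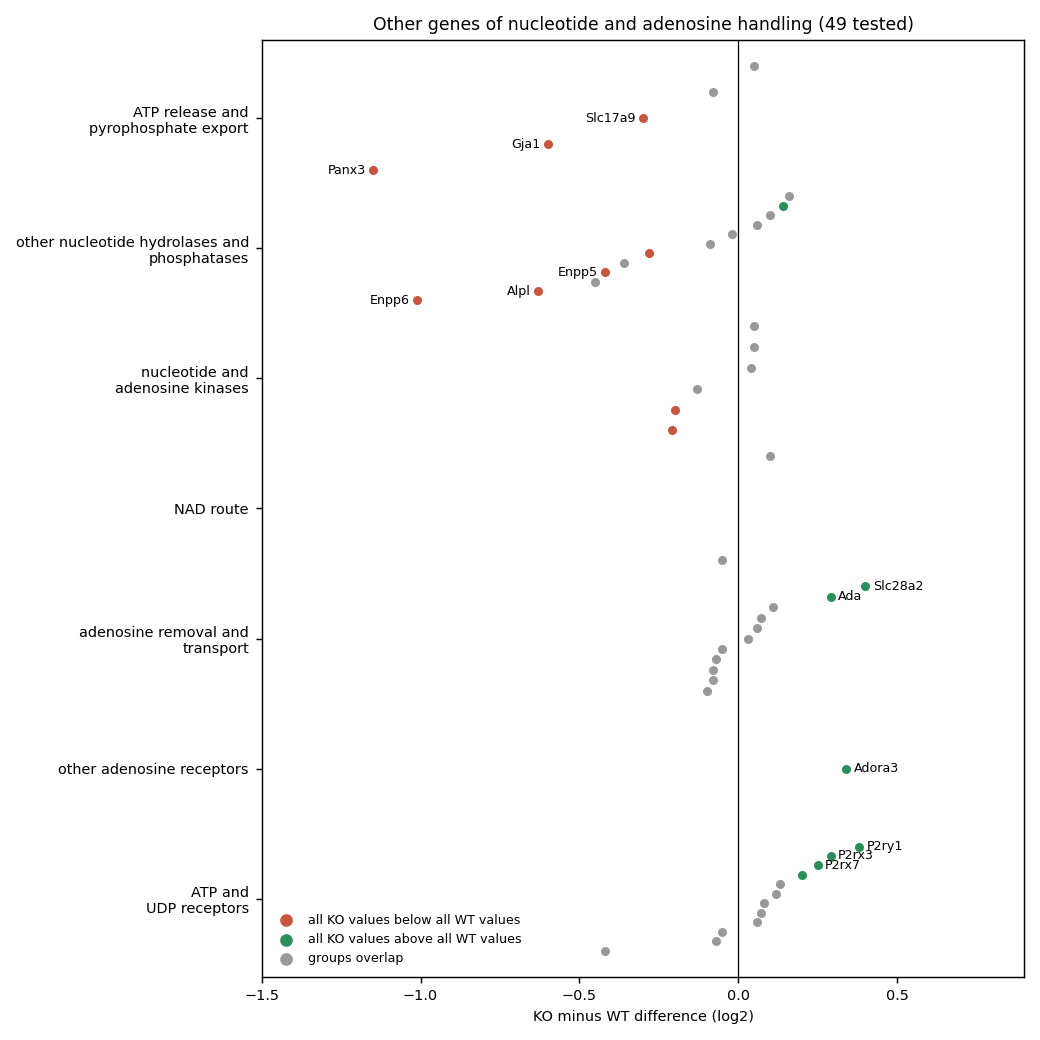
KO minus WT difference in log2 signal (x axis) of the 49 tested genes of nucleotide and adenosine handling other than the members, 1 point per gene at its brightest tested probe, in rows by role. Red points have all KO values below all WT values (9 genes), green points all KO values above them (8 genes), and grey points overlap; the named genes are the 6 with the smallest p on each side.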

How the data were processed

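RNA of 3 WT and 3 KO BMSC samples was measured on 1-colour Agilent arrays of 62976 spots, 59305 of them not controls. The intensity values are, per the file headers, the processed signal (spatially and multiplicatively detrended), mean signal and median background of Agilent Feature Extraction 10.7.1.1, while the submitters' processing notes name version 9.1. The description and extraction fields of the labels speak of human blood. The titles and source names, which speak of mouse cells, were followed. The deposited series table holds log2 values, whose sorted values differ between columns by at most 0.0028 (median 6.15), as quantile normalization gives; other steps are not given in the sources used here.

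Processed signals were put on a log2 scale and set relative to the array's 75th percentile over non-control probes. Outlier spots were left out and spots of a probe averaged. A probe entered the fit if at least 2 values per group were present and 1 group had it well above background throughout (at least a share of 0.5 of its spots). Differences were fitted in R 4.3.3 with limma 3.58.1 (lmFit, eBayes, two-sided, 4 residual and 2.65 prior degrees of freedom), with Benjamini-Hochberg adjustment over 28606 probes and a threshold of 0.05. Where a gene had several tested probes, the brightest stands for it. Names of other genes came from RefSeq (GRCm38.p6), matched by accession for 32994 probes, by symbol for 10224 and by synonym for 520. The array's own name was used for 2574, and 10293 were unnamed. The fit was tested on simulated data. The members and lists were chosen with earlier results of these data known. Named genes are all members, the 6 pathway genes with the smallest p per direction, the 5 genes most like Nt5e and Entpd4, and marker lists for stromal, osteoblast, macrophage, endothelial and lymphocyte cells. Of 17 alternatives, 1 changed background correction (normexp) and normalization (quantile) together. Another used the deposited series table, whose steps are not all given, and the rest changed 1 choice each. A slide block was not run because all arrays lay on 1 slide with 1 scan time.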

Additional observations from a re-analysis of the deposited data

How the results depend on the processing

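Under the 17 alternatives, the differences of Entpd3, Nt5e and Entpd4 kept their sign and moved by less than 1 SD. For Entpd4 these are values of probe a, or of the mean of its probes where probes were averaged. Several alternatives, such as other filters on dim probes and the variance trend, could not move the differences. Leaving out arrays could not turn their sign, because the groups did not overlap. The kept sign is therefore no separate support for these genes. The count of probes called over the whole array, 17 at the main setting (14 lower, 3 higher), did depend on the processing. Normexp with quantile normalization, 2 changes made together, gave 215, a variance trend 220 and centring on the median 101. Restricting to probes above background everywhere gave 9, and averaging the probes of each gene gave 28 genes. It was 0 without the filter on dim probes (18002 at an unadjusted limma p under 0.05), 0 with Xist signal as a term (4616 at that p), and between 2 (without WT replicate 1) and 31 (without WT replicate 3) with 1 array left out. Without WT replicate 2 it was 4. The split by direction moved too, with 12 lower and 10 higher when KO replicate 1 was left out, 7 lower and 13 higher when it was KO replicate 2, and 8 lower and 12 higher when it was KO replicate 3. Without WT replicate 3 it was 31 lower and 0 higher. Without the filter, the median difference of all probes rose from 0.02 to 0.13. In the pathway list, 1 gene, Panx3, was called with normexp and quantile normalization and 1, again Panx3, with a variance trend, against 0 otherwise.

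Same-numbered arrays lay in the same slide column, but their deviations from the group means correlated with r of 0.06, 0.15 and -0.03 over 28598 probes, so the numbers were not taken to pair the samples. Not every array correlated best with its own number. With the replicate number as a block, 0 probes were called (4647 at an unadjusted limma p under 0.05).

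The 3 arrays per group limit the precision. Probes near background, such as those of Entpd7, Adora2a and Entpd4 probe b, have the least certain sizes. Median endothelial and lymphocyte marker differences were -0.02 (3 of 6 markers tested) and 0.05 (2 of 8).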
